A study of Mus musculus with 14 samples.

Results

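The comparison described here is the difference that TMP195 made in tumours of LLC1 cells, taken over tumours with and without MYCi975. It set the 6 libraries that had received TMP195 against the 8 that had not, which together are all 14 libraries of the series. The 6 libraries were TMP195 alone at 50 mg/kg (3 libraries) and the combination of TMP195 with MYCi975 (3 libraries). The 8 libraries were the DMSO vehicle (4 libraries) and MYCi975 alone at 50 mg/kg (4 libraries). Treatment ran for 16 days, and the sources used here give no doses for the agents inside the combination. LLC1 is the mouse Lewis lung carcinoma line, here grown as tumours in mice. RNA was taken from tumour tissue brought into single-cell suspension, which the extraction protocol calls an enriched tumour population. No label states that a library is a separate animal, so the p-values rest on the spread between libraries, part of which may be technical.

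Class IIa histone deacetylases, namely HDAC4, HDAC5, HDAC7 and HDAC9, have little enzymatic activity of their own and bring corepressors to transcription factors, best known among them the MEF2 family. TMP195 occupies the acetyl-lysine pocket of these proteins, and in mouse tumours the compound is best known for acting on macrophages. MYCi975 is a small molecule that binds MYC, the transcription factor of growth and ribosome synthesis genes, and promotes its degradation.

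Expression was measured by RNA sequencing and deposited as variance-stabilised log2 values. Of 21152 genes, 13711 had a mean more than 1 log2 unit above the lowest value in the table (4.047, read as no detected transcript) and were tested. A difference below is always the log2 value with TMP195 minus the log2 value without TMP195, and the 2 backgrounds are TMP195 minus vehicle and combination minus MYCi975, which share no library. No gene passed an adjusted p of 0.05 in limma's moderated test of the TMP195 term (0 of 13711, or 0%), and the smallest adjusted p was 0.893. An unadjusted p under 0.05 was reached by 731 genes (5.33% of those tested), against 686 that 5% of all tested genes would make. They comprised 379 higher (2.76%) and 352 lower (2.57%) with TMP195. Among these, 378 genes (2.76%) were higher with TMP195 in both backgrounds and 348 (2.54%) were lower in both. Single libraries moved these counts: leaving out TMP195 replicate 3 gave 625 higher and 802 lower genes, still with 0 called, and leaving out TMP195 replicate 2 gave 292 higher and 220 lower genes.

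Over all tested genes the 2 backgrounds shared little direction. The difference had the same sign in both backgrounds for 6819 genes (49.7%), and across genes the 2 differences had a Pearson r of -0.02 and a Spearman rho of -0.02, a description over genes that are not independent of each other. The median absolute difference was 0.12 for TMP195 minus vehicle and 0.16 for combination minus MYCi975. Genes that differed by at least 0.25 were higher in both backgrounds in 225 cases (1.64%), lower in both in 203 cases (1.48%) and opposite in 521 cases (3.8%). Within single backgrounds limma also called 0 genes, with 381 genes (2.78%) at an unadjusted p under 0.05 for TMP195 against vehicle and 1120 (8.17%) for the combination against MYCi975. An unadjusted p under 0.05 in both backgrounds with the same direction was found for 21 genes (0.153%), and with opposite directions for 5 genes (0.0365%). Without TMP195 replicate 3 the share of genes with the same sign was 58.8% and r was 0.25, whereas without TMP195 replicate 1 the share was 44.3% and r was -0.19.

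**Figure D1:**
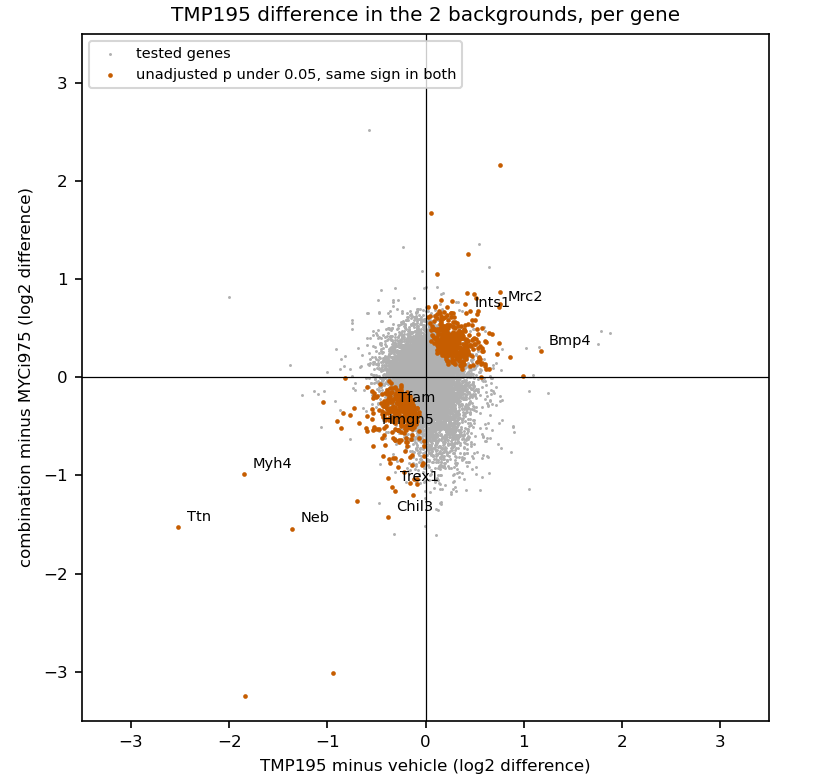
Each point is a tested gene, with the log2 difference of TMP195 minus vehicle on the horizontal axis and of combination minus MYCi975 on the vertical axis. The coloured points are the 378 genes higher and the 348 genes lower in both backgrounds at an unadjusted p under 0.05, and the grey points spread over all 4 quadrants, with 49.7% of genes at the same sign.

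The libraries differed among themselves within groups. On the first principal component (28.7% of the variance) MYCi975 replicate 2 lay at 52.7 and TMP195 replicate 3 at 21.9, and combination replicate 1 lay at the other end at -26.1. The same order held for Ptprc, which encodes the pan-leukocyte protein CD45: it was at 11.45 in TMP195 replicate 3, 9.65 in combination replicate 1 and 12.07 in MYCi975 replicate 2. The TMP195 difference on that component was -11.6 (exact permutation test within backgrounds, two-sided, p = 0.341 and adjusted p = 0.554 over 8 library measures). Its value was 4.13 for TMP195 minus vehicle and -27.3 for combination minus MYCi975. The keratins Krt8 and Krt18 of the LLC1 epithelium were above the lowest value in every library, with Krt8 between 7.87 and 8.65 with TMP195 and between 7.86 and 8.51 without. Epcam was at the lowest value in 4 of 14 libraries and Krt19 in 2, so these epithelial markers were near the detection limit. As these are bulk samples, fewer cells of a type and less RNA per cell cannot be told apart.

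Among symbol-bearing genes lower with TMP195 by at least 0.25 in both backgrounds, the smallest p was that of Hmgn5 (ENSMUSG00000031245.9). Hmgn5 encodes a nucleosome-binding protein of the HMGN family that loosens compact chromatin. It stood at 7.83, 7.72 and 8.14 in TMP195 libraries, against 8.26, 8.54, 8.27 and 8.65 in vehicle libraries. In combination libraries it stood at 7.86, 7.87 and 7.85, against 8.17, 8.46, 8.13 and 8.82 in MYCi975 libraries. Within each background the groups did not overlap, although TMP195 replicate 3 lay just above the lowest MYCi975 library. The share of all tested genes that separate so within a background is not given, here or for genes below. The difference was -0.53 (95% interval -0.78 to -0.29, unadjusted p = 0.000313 and adjusted p = 0.893 in limma), made of -0.53 against vehicle and -0.54 against MYCi975.

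Among symbol-bearing genes higher with TMP195 by at least 0.25 in both backgrounds, Ints1 (ENSMUSG00000029547.11) had the smallest p. Ints1 encodes a scaffold subunit of the Integrator complex that cleaves nascent small nuclear RNAs. It stood at 8.56, 8.45 and 8.20 in TMP195 libraries, against 8.05, 8.19, 8.09 and 7.64 in vehicle libraries. The combination libraries had 8.94, 8.53 and 8.22, against 7.92, 7.94, 7.72 and 8.04 in MYCi975 libraries. All 6 libraries with TMP195 lay above all 8 without, and Ints1 was the 1 tested gene of which this held (0.00729%). The difference was 0.53 (95% interval 0.27 to 0.80, unadjusted p = 0.000556 and adjusted p = 0.893 in limma), made of 0.41 against vehicle and 0.66 against MYCi975.

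Below all 8 libraries without TMP195 in all 6 with it lay 5 tested genes (0.0365%), picked out after their values were seen. How many genes would separate so in either direction with the labels exchanged was not tested. The 5 genes were Tfam, Usp15, Ahsa1, Rad21 and 1 identifier without a symbol. Tfam, which packages mitochondrial DNA and starts its transcription, stood at 7.54, 7.39 and 7.56 in TMP195 libraries, against 7.69, 7.70, 7.62 and 8.45 in vehicle libraries. With MYCi975 present as well, combination libraries had 7.51, 7.33 and 7.54, against 7.83, 7.79, 7.59 and 7.88 in MYCi975 libraries. The gap between the highest library with TMP195 and the lowest without was narrow, and vehicle replicate 4 stood far above the rest. The Tfam difference was -0.34 (95% interval -0.60 to -0.08, unadjusted p = 0.0130 in limma), with -0.37 against vehicle and -0.31 against MYCi975. Usp15, a deubiquitinase, differed by -0.20. Ahsa1, the activator of the HSP90 ATPase, differed by -0.29 and Rad21, a cohesin subunit, by -0.12, and for both the nearest values of the compared libraries were equal at 2 decimals.

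The promoters of Hmgn5, Ints1 and Tfam are shown. Hmgn5 and Ints1 had the smallest p in each direction among symbol-bearing genes that differed by at least 0.25 in both backgrounds. Tfam is the mitochondrial regulator whose libraries did not overlap. The windows run from 250 bases before to 50 after the gene's start in RefSeq (GRCm38.p6), written in the direction of transcription. All 3 genes lie on the minus strand, Hmgn5 at chrX:109013331-109013630, Ints1 at chr5:139775629-139775928 and Tfam at chr10:71237995-71238294. Capitals mark the hypoxia response element core, ACGTG read on either strand.
Hmgn5: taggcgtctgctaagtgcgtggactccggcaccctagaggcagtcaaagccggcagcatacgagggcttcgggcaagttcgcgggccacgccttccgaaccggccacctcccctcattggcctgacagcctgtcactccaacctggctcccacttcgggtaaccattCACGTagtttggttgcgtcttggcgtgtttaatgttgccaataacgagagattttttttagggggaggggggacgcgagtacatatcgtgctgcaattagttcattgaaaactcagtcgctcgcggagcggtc
Ints1: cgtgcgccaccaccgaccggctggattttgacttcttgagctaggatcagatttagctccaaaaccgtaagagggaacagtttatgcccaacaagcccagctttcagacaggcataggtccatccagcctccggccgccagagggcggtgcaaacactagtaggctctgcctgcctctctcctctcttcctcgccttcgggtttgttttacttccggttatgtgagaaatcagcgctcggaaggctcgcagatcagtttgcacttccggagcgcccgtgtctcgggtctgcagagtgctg
Tfam: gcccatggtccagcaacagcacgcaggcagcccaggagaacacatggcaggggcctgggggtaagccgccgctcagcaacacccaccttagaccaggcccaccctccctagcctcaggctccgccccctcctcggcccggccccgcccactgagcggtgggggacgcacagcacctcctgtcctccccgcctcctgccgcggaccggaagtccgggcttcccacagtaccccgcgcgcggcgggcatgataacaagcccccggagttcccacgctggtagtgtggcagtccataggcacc
A single match of this core was found in the Hmgn5 window, whereas the other windows held none of the motifs searched. Besides ACGTG, these were the antioxidant response element core TGACNNNGC, the E-box CACGTG, which contains ACGTG, and the MEF2 consensus, all on both strands. Over all 32851 windows of the RefSeq table ACGTG occurred in 19.6%, TGACNNNGC in 12.4%, CACGTG in 7.15% and the MEF2 consensus in 1.86%. Over the 9565 tested genes with a window the shares were 25.9%, 14.7%, 10.2% and 1.15%. A comparison of these shares between genes higher and lower with TMP195 was void, because 69.8% of the tested genes with a symbol had a window.

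With Ints1 and Hmgn5 among them, 12 genes in each direction were named by the smallest p among genes that differed by at least 0.25 in both backgrounds. Mrc2, the endocytic collagen receptor also called Endo180, stood at 8.59, 8.54 and 8.16 in TMP195 libraries, against 7.89, 7.70, 7.84 and 7.31 in vehicle libraries. In combination libraries it stood at 8.51, 8.34 and 8.64, against 8.11, 7.76, 8.37 and 6.90 in MYCi975 libraries. TMP195 libraries lay above all vehicle libraries, while MYCi975 replicate 3 reached into the combination range. The Mrc2 difference was 0.73 (95% interval 0.34 to 1.12, unadjusted p = 0.00102 in limma). Tgfbr3, the TGF-beta co-receptor betaglycan, differed by 0.44, with 11.86, 11.89 and 11.13 in TMP195 libraries against 11.28, 11.26, 11.16 and 11.26 in vehicle libraries. TMP195 replicate 3 was the lowest of these 7 libraries for Tgfbr3, whereas the combination libraries, at 11.94, 11.53 and 11.60, all exceeded the MYCi975 libraries, at 11.12, 11.04, 11.30 and 11.35. Cad, the enzyme that opens pyrimidine synthesis, differed by 0.64 and had the same library apart, with 9.68, 9.55 and 8.82 in TMP195 libraries against 8.90, 8.62, 9.10 and 9.06 in vehicle libraries. Fkbp5, an immunophilin that binds HSP90 in glucocorticoid receptor complexes, differed by 0.54. Also higher by this rule were Nek3 (0.46), Rnf144b (0.45), Prrc2b (0.39), Nbas (0.33), Bnc2 (0.61) and Fbxl12 (0.39). Nek3 had a mean of 5.358 with TMP195 and 4.898 without, so it passed the filter on low values only through libraries with TMP195.

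Terf1, a telomere-binding shelterin subunit, was among the lower genes. It stood at 6.998, 7.08 and 7.11 in TMP195 libraries, against 7.41, 7.37, 7.43 and 7.72 in vehicle libraries. The combination libraries had 7.29, 7.21 and 7.38, against 7.72, 7.33, 7.76 and 7.87 in MYCi975 libraries. The TMP195 libraries lay below all vehicle libraries, and in the MYCi975 background 1 library of each group crossed. The Terf1 difference was -0.40 (95% interval -0.61 to -0.18, unadjusted p = 0.00107 in limma). Anp32a, an acidic nuclear phosphoprotein that binds histones, differed by -0.47, with -0.31 against vehicle and -0.63 against MYCi975. Mrpl35, a protein of the large mitochondrial ribosomal subunit, differed by -0.38, and its combination libraries (7.68, 8.10 and 8.08) all lay below the MYCi975 libraries (8.26, 8.36, 8.59 and 8.32). Chil3, a chitinase-like protein of monocytes and macrophages with close relatives in the mouse genome whose reads may have been shared, differed by -0.90. Its size was uneven between backgrounds, -0.38 against vehicle and -1.43 against MYCi975 (unadjusted p of the difference = 0.0176 and adjusted p = 0.911 or more in limma). Trex1, an exonuclease that degrades cytosolic DNA, differed by -0.73, with -0.34 against vehicle and -1.12 against MYCi975. Trex1 was at the lowest value in 2 of 3 combination libraries, and MYCi975 replicate 2 was highest at 6.16. Its mean was 4.781 with TMP195 and 5.512 without, so Trex1 passed the filter on low values only through libraries without TMP195. The others lower by this rule were Pla2g6 (-0.57), Krcc1 (-0.39), Srp54a (-0.35, with near-identical copies in the mouse genome), Zc3h4 (-0.53), Stra6 (-0.47) and Aida (-0.35).

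**Figure D2:**
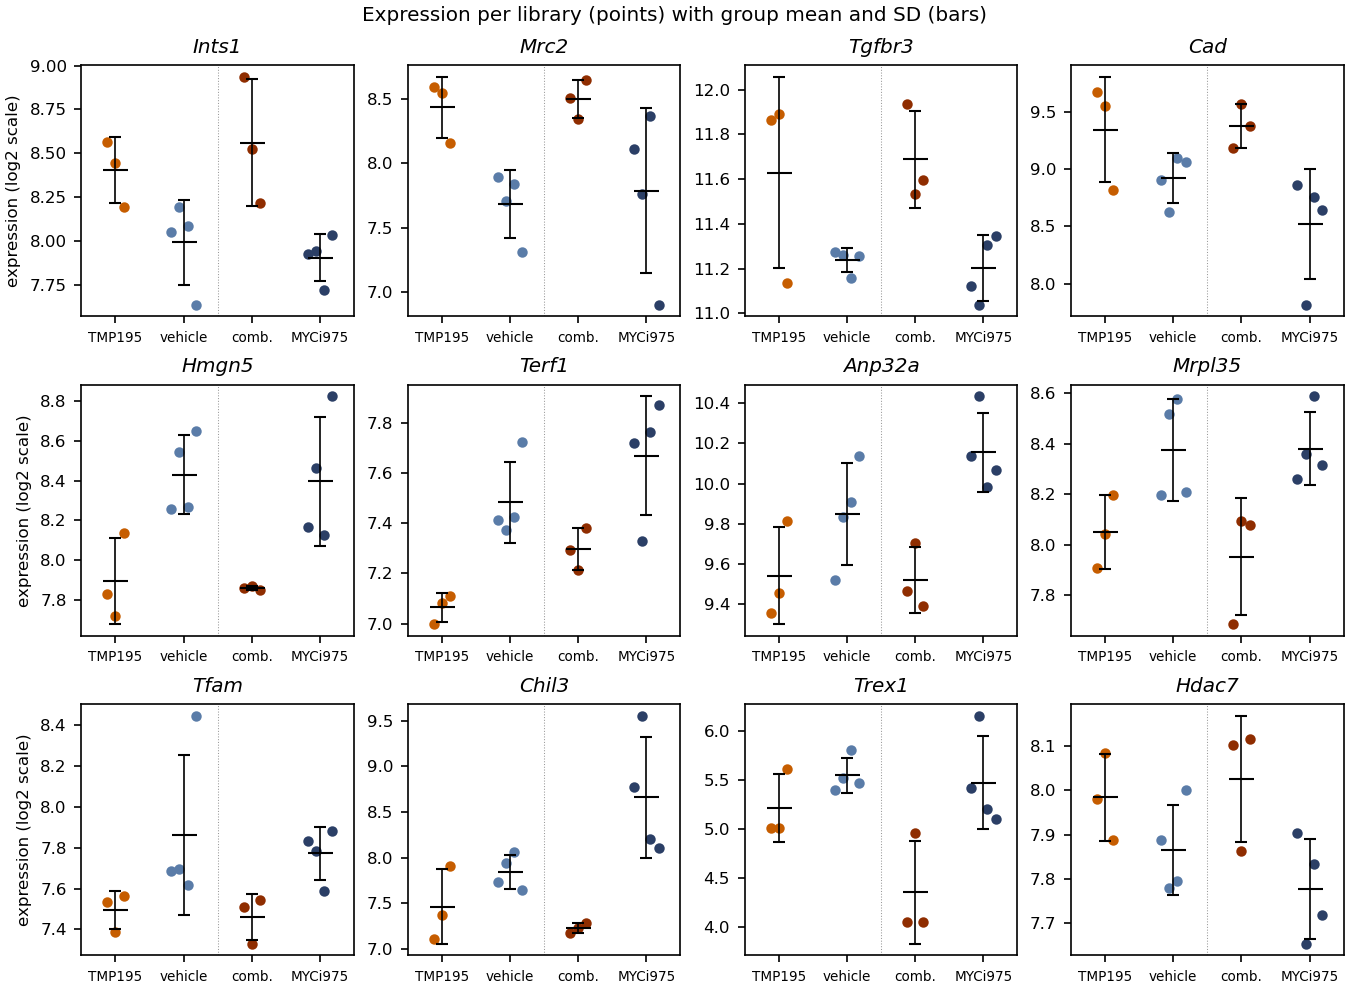
Points are log2 expression values of single libraries, with the mean and SD of each group as bars, for 12 genes named in the text. TMP195 stands beside vehicle and the combination (comb.) beside MYCi975, and vertical scales differ between panels. For Hmgn5 the 3 combination libraries (7.86, 7.87 and 7.85) lie close together and below all MYCi975 libraries.

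No transcript of the direct targets or their partners passed adjustment in limma. Hdac7 was the 1 tested member of 7 in the list of class IIa deacetylases and MEF2 factors at an unadjusted p under 0.05. It stood at 7.98, 8.09 and 7.89 in TMP195 libraries, against 7.89, 7.78, 7.79 and 8.001 in vehicle libraries, and the groups overlapped. With MYCi975 present as well, combination libraries had 8.10, 7.86 and 8.12, against 7.90, 7.65, 7.83 and 7.72 in MYCi975 libraries. The Hdac7 difference was 0.18 (95% interval 0.01 to 0.36, unadjusted p = 0.0440 and adjusted p = 0.893 in limma).

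Hdac5 and Hdac4 were higher against vehicle and lower against MYCi975. Hdac5 stood at 8.63, 8.04 and 8.42 in TMP195 libraries, against 7.93, 7.80, 8.06 and 7.79 in vehicle libraries, a difference of 0.47. In combination libraries it stood at 7.91, 8.04 and 8.18, against 8.18, 8.22, 8.23 and 8.25 in MYCi975 libraries, a difference of -0.18. The backgrounds differed for Hdac5 by -0.65 (unadjusted p = 0.00524 and adjusted p = 0.911 or more in limma), and for Hdac4 by -0.54, made of 0.42 and -0.12. Over both backgrounds Hdac9 differed by -0.04, Mef2a by -0.09, Mef2c by -0.40 and Mef2d by -0.11, all at an unadjusted p of 0.141 or more in limma. Myc itself differed by 0.00 (95% interval -0.22 to 0.23). Of 13 tested genes listed as MEF2-responsive, 2 were higher and 7 lower in both backgrounds, with a median of -0.21. Of all 13711 tested genes, 25.4% were higher in both, 24.4% were lower in both and 50.3% were opposite, with a median of -0.005. The MEF2-responsive median was -0.33 with the replicate number as a block and 0.00 with skeletal muscle markers as a covariate. Adamts1, a secreted metalloprotease, had the smallest p of this list and was higher, by 0.75. It stood at 10.06, 9.65 and 9.49 in TMP195 libraries, against 8.32, 9.06, 8.73 and 9.76 in vehicle libraries, and at 10.41, 9.95 and 9.15 in combination libraries, against 9.57, 8.21, 8.98 and 9.59 in MYCi975 libraries. Des, the muscle intermediate filament desmin, differed by -0.57. With a mean of 4.995 with TMP195 and 5.563 without, Des passed the filter on low values only through libraries without TMP195.

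Transcripts of the mitochondrial genome and nuclear genes of complexes I and III to V were lower more often than higher, with small and variable differences. This did not hold for every mitochondrial list. Succinate dehydrogenase genes were higher in both backgrounds for 3 of 8 members and lower in both for 0, with a median of 0.01. Genes of mitochondrial fusion, fission and mitophagy were higher in both for 5 of 16 and lower in both for 1, and of 17 fatty acid oxidation genes 9 were higher and 8 lower over both backgrounds together. Of the 13 protein-coding transcripts of the mitochondrial genome, 11 were lower and 1 was higher in both backgrounds, with a median of -0.31, and 0 of 13 reached an unadjusted p of 0.05. The mean level of the 13 transcripts was 13.39, 14.83 and 15.25 in TMP195 libraries, against 14.04, 14.77, 13.998 and 15.68 in vehicle libraries. It was 14.89, 14.18 and 13.41 in combination libraries, against 14.82, 14.82, 13.65 and 15.08 in MYCi975 libraries. These ranges overlapped in both backgrounds, and TMP195 replicate 1 and combination replicate 3 were lowest. The median was -0.07 with the replicate number as a block and -0.51 without TMP195 replicate 3. The complex I subunits mt-Nd2, mt-Nd4l and mt-Nd3 differed by -0.42, -0.42 and -0.41, mt-Cytb of complex III by -0.41, and mt-Co2 of complex IV was higher, by 0.09.

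Nuclear genes of complex I were lower in both backgrounds for 20 of 37 tested members and higher in both for 2. Their median was -0.06, with -0.09 against vehicle and -0.03 against MYCi975. None of the 37 reached an unadjusted p of 0.05, and Ndufa5 was nearest at -0.34 (95% interval -0.68 to 0.00). Of 35 genes of complexes III to V, 14 were lower and 6 higher in both, with Atp5l, an ATP synthase subunit, at -0.37. Their medians were -0.11 against vehicle and -0.01 against MYCi975. Of 22 tricarboxylic acid cycle genes, 11 were lower and 5 higher in both, with Suclg2 at -0.27 and Idh3a at -0.17. The medians of this list were -0.07 against vehicle and -0.02 against MYCi975. Among 15 genes of mitochondrial DNA maintenance, 5 were lower and 2 higher in both, and besides Tfam, Ssbp1, which coats single-stranded mitochondrial DNA, differed by -0.29. The mitochondrial ribosome had 14 of 56 members lower in both (25%), near the 24.4% of all genes, and 7 higher in both. With GC content and transcript length removed from each library, the medians were -0.02 for complex I, -0.04 for complexes III to V and -0.01 for the mitochondrial ribosome, against -0.06, -0.07 and -0.04 before.

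Genes of ribosome biogenesis that respond to MYC were lower in both backgrounds for 14 of 25 tested members and higher in both for 3. Their median was -0.10, with -0.18 against vehicle and -0.03 against MYCi975. Without combination replicate 1 the median against MYCi975 was 0.00, and 10 members were lower in both. An unadjusted p under 0.05 was reached by 5 of 25, all lower, where 5.33% of all tested genes passed. Nop58, a core protein of the small nucleolar particles that guide ribosomal RNA methylation, stood at 9.38, 9.31 and 9.57 in TMP195 libraries, against 9.54, 9.57, 10.01 and 9.84 in vehicle libraries. The combination libraries had 9.31, 9.55 and 9.49, against 9.54, 9.81, 9.90 and 9.84 in MYCi975 libraries. The groups met at their edges in both backgrounds. The Nop58 difference was -0.32 (95% interval -0.53 to -0.12, unadjusted p = 0.00371 in limma), and it was -0.32 in each background. Wdr43, a small-subunit processome protein, differed by -0.39, Ncl, the nucleolar protein nucleolin, by -0.41, Rrs1 by -0.26 and Ddx21 by -0.19. The MYC target Nop56 was at -0.07 and Npm1 at -0.11.

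Heat shock chaperones were lower in both backgrounds for 7 of 13 tested members and higher in both for 2, where 24.4% of all genes were lower in both. The median was -0.19, with -0.12 against vehicle and -0.06 against MYCi975, and 3 of 13 reached an unadjusted p under 0.05, where 5.33% of all genes did. Hsp90aa1, the inducible HSP90 chaperone, stood at 12.50, 12.25 and 13.15 in TMP195 libraries, against 12.68, 12.84, 12.73 and 13.07 in vehicle libraries. With MYCi975 present as well, combination libraries had 12.73, 12.48 and 12.68, against 12.95, 13.19, 13.18 and 13.38 in MYCi975 libraries. The combination libraries all lay below the MYCi975 libraries, while TMP195 replicate 3 was above every vehicle library. The Hsp90aa1 difference was -0.37 (95% interval -0.66 to -0.07), with -0.20 against vehicle and -0.54 against MYCi975. Its partners Dnaja1, an HSP40 co-chaperone, and Hspa4, a nucleotide exchange factor of HSP70, differed by -0.33 and -0.31. The list median was -0.10 after quantile normalisation of the libraries. Of 38 DNA replication genes, 15 were lower and 2 higher in both, with Pola1, the catalytic subunit of DNA polymerase alpha, at -0.31 and Lig1, the replicative ligase, at -0.26. Of 32 mitosis and spindle genes, 11 were lower and 1 higher in both, with the kinetochore gene Nuf2 at -0.31. Opposite signs in the 2 backgrounds were found for 21 of 38 members (55.3%) and 20 of 32 members (62.5%), where 50.3% of all tested genes had them. The DNA replication medians were -0.15 against vehicle and 0.05 against MYCi975, and those of mitosis and spindle genes were -0.16 and 0.04. Over both backgrounds the mitosis median was -0.05, and it was 0.004 without vehicle replicate 3.

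**Figure D3:**
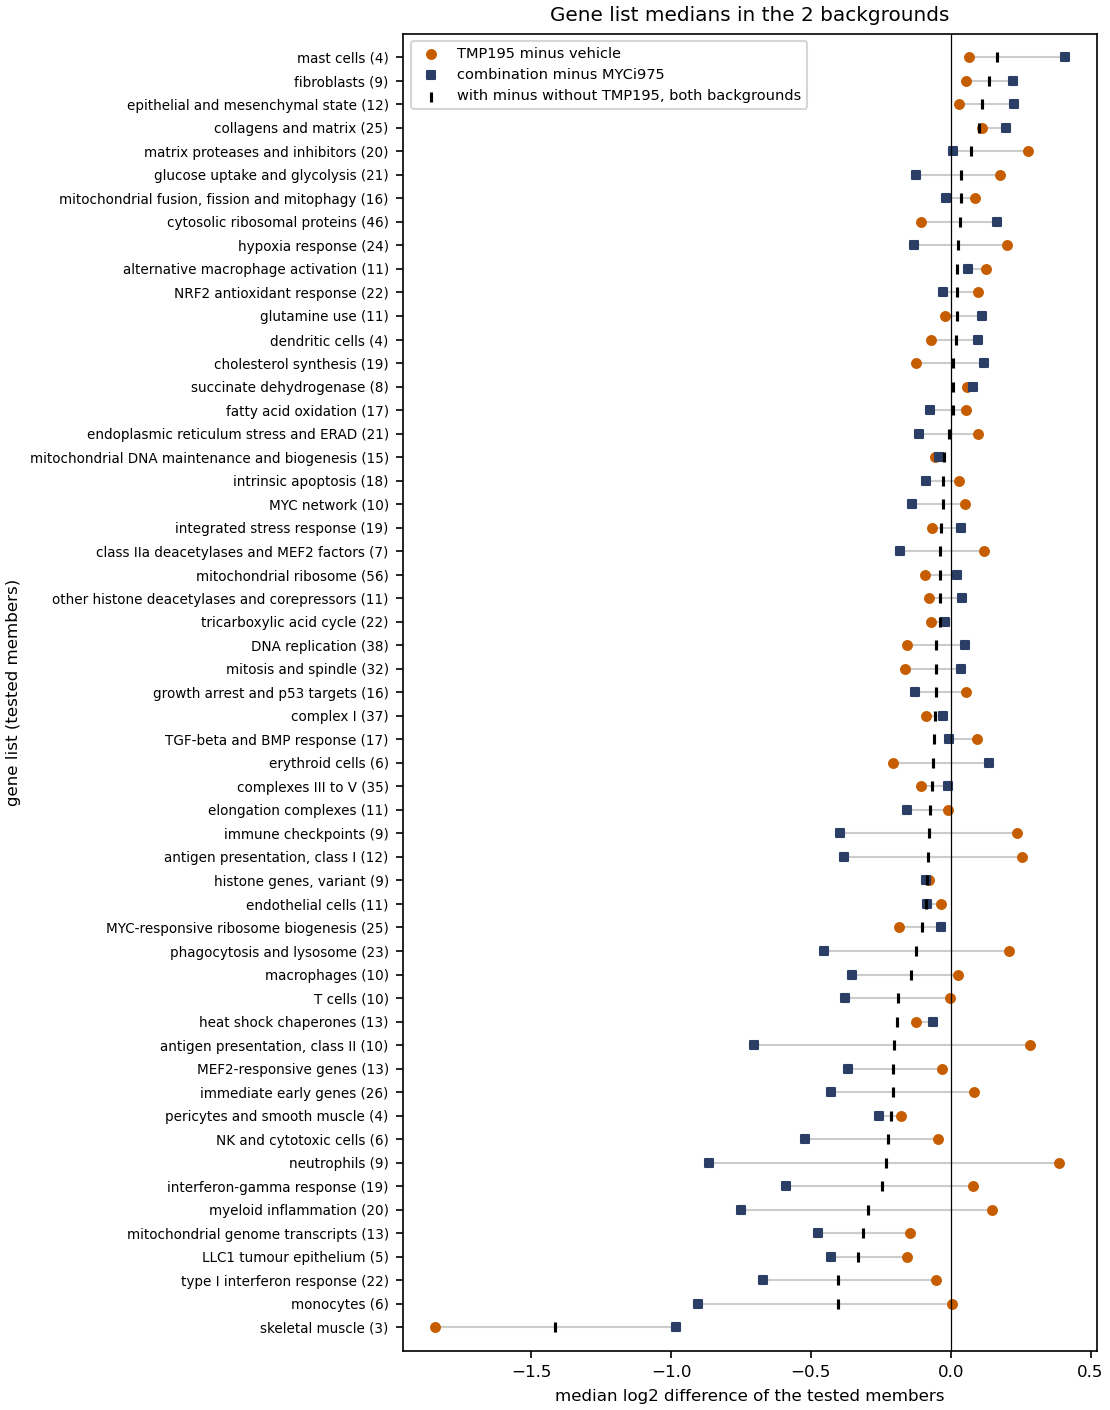
Median log2 difference of the tested members of each gene list, for TMP195 minus vehicle (circles), combination minus MYCi975 (squares) and both backgrounds together (ticks), ordered by the last. Fibroblast and matrix lists lie right of 0 in both backgrounds, mitochondrial genome transcripts lie left of 0 in both (-0.15 and -0.47), and neutrophil markers lie on opposite sides (0.39 and -0.86).

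Collagen and matrix genes were higher in both backgrounds for 12 of 25 members and lower in both for 3, with a median of 0.10. Dcn, the collagen-binding proteoglycan decorin, stood at 11.07, 11.11 and 11.40 in TMP195 libraries, against 10.53, 11.03, 10.53 and 11.25 in vehicle libraries. In combination libraries it stood at 11.26, 11.34 and 11.17, against 11.19, 10.71, 11.04 and 11.19 in MYCi975 libraries. The groups overlapped in both backgrounds, and the Dcn difference was 0.29 (95% interval 0.02 to 0.56). Col18a1, which encodes the basement membrane collagen that yields endostatin, differed by 0.29, and Col3a1, a fibrillar collagen, by 0.38. Postn, the matricellular protein periostin, went the other way at -0.51. Mmp14, the membrane-bound collagenase, differed by 0.30 and Itga5, the fibronectin receptor subunit, also by 0.30.

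Fibroblast markers stood beside this. Of 9 markers, 4 were higher and 1 lower in both backgrounds, with a median of 0.14, and Pdgfra, the receptor that defines many fibroblasts, differed by 0.37. Over both backgrounds together 4 of the 9 were lower, and the median changed sign under 4 of 27 alternatives, to -0.11 with skeletal muscle markers as a covariate. The mean level of the 9 markers ran from 8.46 to 9.20 with TMP195 and from 7.98 to 9.14 without, no marker was at the lowest value in any library, and their part in the matrix values was not tested. The matrix median over both backgrounds was -0.01 without combination replicate 1 and 0.23 without TMP195 replicate 3. Without MYCi975 replicate 2 the fibroblast median against MYCi975 was -0.07 and the matrix median 0.06.

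All 22 tested genes of the type I interferon response were lower over both backgrounds together, with a median of -0.40, and the larger differences were in the MYCi975 background. Their median was -0.05 for TMP195 minus vehicle and -0.67 for combination minus MYCi975, and 15 of 22 were lower in both. The mean level of the list was 6.83, 7.10 and 7.44 in TMP195 libraries, against 7.21, 6.97, 7.45 and 7.09 in vehicle libraries. It was 6.604, 6.78 and 6.88 in combination libraries, against 7.32, 8.49, 6.85 and 7.17 in MYCi975 libraries. MYCi975 replicate 2 stood well above every other library. Among its members the interferon-induced GTPase Mx2 alone reached an unadjusted p of 0.05, with a difference of -0.62. Irf7, the master regulator of this response, differed by -0.52. With Ptprc as a covariate the list median was -0.18. Without MYCi975 replicate 2 the median for combination minus MYCi975 was -0.40, and without TMP195 replicate 3 the median for TMP195 minus vehicle was -0.20, with 20 of 22 members lower in both.

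Lists of neutrophil, myeloid inflammation, antigen presentation and interferon-gamma response genes had medians of opposite sign in the 2 backgrounds. This did not hold for every myeloid list. Alternative macrophage activation genes had medians of 0.13 against vehicle and 0.06 against MYCi975, with 4 of 11 higher and 1 lower in both. Monocyte markers had medians of 0.005 and -0.905, with 3 of 6 lower and 1 higher in both. All 9 tested neutrophil markers were higher against vehicle and lower against MYCi975, with medians of 0.39 and -0.86, and S100a9, a calprotectin subunit, differed by 0.42 and -1.15. All 12 class I antigen presentation genes were also of opposite sign, with medians of 0.26 and -0.38. For class II this held for 8 of 10 members, for interferon-gamma response genes for 13 of 19 and for myeloid inflammation genes for 16 of 20. Of all tested genes, 50.3% had opposite signs. Ptprc was also of opposite sign, at 0.24 and -0.81. These values moved when single libraries were left out, among them TMP195 replicate 3 and MYCi975 replicate 2 with high Ptprc and combination replicate 1 with low Ptprc. Without TMP195 replicate 3, 8 of 10 class II genes and 15 of 19 interferon-gamma genes were lower in both backgrounds, and the class I median against vehicle was 0.06, while the neutrophil medians were 0.57 and -0.86. Without MYCi975 replicate 2 the medians against MYCi975 were -0.56 for neutrophil markers, -0.18 for class I and -0.45 for class II. Without combination replicate 1 they were -0.76 for neutrophil markers, -0.17 for class I, -0.28 for class II and -0.23 for interferon-gamma response genes, against -0.59 for the last with all libraries. No gene of these lists was called for the difference between backgrounds, in which limma called 0 genes, with 656 (4.78%) at an unadjusted p under 0.05. Macrophage markers ranged from 7.71 to 8.81 in mean level with TMP195 and from 7.79 to 8.90 without, and 5 of 10 were lower in both (9 of 10 without TMP195 replicate 3). T cell markers ranged from 5.08 to 5.94 with TMP195 and from 5.15 to 6.16 without, with Cd2, a T cell adhesion receptor, at -0.43 and Lck, the T cell receptor kinase, at -0.30. Of the 10 T cell markers 7 were lower and 3 higher over both backgrounds, 5 had opposite signs in the 2 backgrounds, and the median was 0.00 against vehicle and -0.38 against MYCi975.

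The skeletal muscle genes Ttn, Neb and Myh4 had the largest values of the smaller of the 2 within-background differences in size. This ranking took genes of the same sign in both backgrounds at an unadjusted p under 0.05. Genes without a symbol, predicted genes, clone names, pseudogenes and small RNAs were left out of it. Of 10 listed muscle markers, 3 passed the filter on low values, so their count is no measure of the list. Neb, the thin filament protein nebulin, stood at 5.16, 5.10 and 4.90 in TMP195 libraries, against 5.38, 6.48, 8.65 and 5.14 in vehicle libraries. The combination libraries had 5.86, 5.56 and 5.50, against 7.21, 8.53, 6.66 and 6.34 in MYCi975 libraries. Vehicle replicate 3 and MYCi975 replicate 2 were highest, and the combination libraries lay below all MYCi975 libraries. The Neb difference was -1.45 (95% interval -2.40 to -0.51, unadjusted p = 0.00498 in limma). Ttn, the giant sarcomere protein titin, differed by -2.02, and Myh4, a fast myosin heavy chain, by -1.41. The mean of the 3 tested muscle markers differed by -1.41 (exact permutation test within backgrounds, two-sided, p = 0.0841, adjusted p = 0.554 over 8 measures). Of these markers, Myh4 had a mean of 5.021 with TMP195 and 6.435 without. It passed the filter on low values only through libraries without TMP195, so this test gives no support for a difference. The mean of the 3 markers ranged from 4.51 to 6.95 with TMP195 and from 4.65 to 9.28 without. In vehicle replicate 4, 7 of 10 markers were at the lowest value. With these markers as a covariate the Neb difference was -0.64.

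Genes with the smallest p of the difference between backgrounds are given as values, and they are not those with the largest differences. Of genes with a positive difference between backgrounds, Zfp169 had the smallest p, with a difference of 1.10 made of -0.33 against vehicle and 0.77 against MYCi975. Med24, a subunit of the Mediator complex, had -0.48 and 0.79, and Eml2, a microtubule-associated protein, had -0.75 and 0.50. In the other direction Nsun6, an RNA cytosine methyltransferase, had 0.30 and -0.67, Narfl, an iron-sulphur cluster assembly factor, had 0.45 and -0.86, and Mreg, the melanosome transport protein melanoregulin, had 0.68 and -0.27. The smallest adjusted p of this comparison was 0.911.

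Transcript composition moved with the direction of the difference. The 378 genes higher in both backgrounds had a median GC content of 51.2% and a median length of 4313 bases in the longest annotated transcript. The 348 genes lower in both had 45.7% and 3133 bases, and all tested genes had 48.4% and 3346 bases. Of the third of genes with the lowest GC content, 82 were higher and 162 lower at an unadjusted p under 0.05, and of the third with the highest, 168 were higher and 72 lower. Library by library, the correlation of expression with GC content differed by 0.05 with TMP195 (exact permutation test, two-sided, p = 0.498), and its part in the gene differences was not tested beyond a fit with GC content and length removed from each library. That fit gave 384 genes higher and 314 lower in both, and 567 of these genes (78.1% of the 726 without the correction) were shared.

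**Figure D4:**
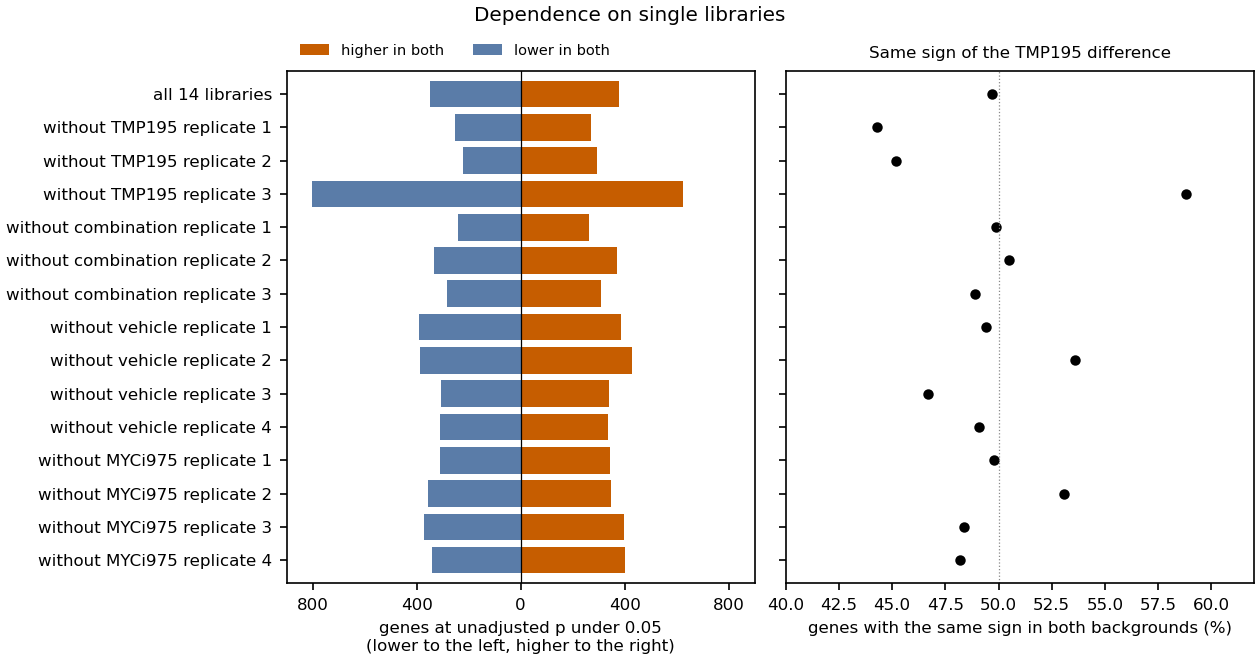
The left panel gives, for all 14 libraries and with each library left out, the genes at an unadjusted p under 0.05 that were higher (right of 0) or lower (left of 0) with TMP195 in both backgrounds, and the right panel the percentage of all tested genes with the same sign in both. Counts run from 264 to 625 genes higher and from 220 to 802 genes lower, with both maxima without TMP195 replicate 3.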

How the data were processed

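RNA was sequenced from 14 libraries with a stranded total RNA kit, per the labels' protocols. The authors deposited 1 table of log2-scale values that had been variance-stabilised, per the file headers. Salmon (version not given in the sources used here) and hg38 appear in the submitters' processing notes. As hg38 is a human build and the identifiers are mouse, the build of the values is not settled here. Promoter coordinates are those of the RefSeq table on GRCm38.p6. Reads per gene cannot be recovered from these values, so depth is unknown and limma was run on the deposited values. Differences of genes near the lowest value are understated. Of 21152 identifiers, 20264 (95.8%) matched a symbol, and 0 columns of values were left unused.

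Genes with a mean more than 1 above the lowest value were tested in limma 3.58.1 (R 4.3.3) with a term for MYCi975 and a term for TMP195 over all 14 libraries (11 residual degrees of freedom, prior 5.09), trended empirical Bayes moderation and Benjamini-Hochberg adjustment over 13711 genes at 0.05. Differences within each background came from a fit with 1 mean per group. All tests were two-sided. Unadjusted p-values are limma's, and intervals are 95% and unadjusted. Single library measures were tested by exact permutation within backgrounds (1225 arrangements, smallest possible p 0.000816). The fit was tested on simulated data.

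Genes were named by rule: 12 a direction by p among those differing by at least 0.25 in both backgrounds; 4 a direction by the smaller of the 2 differences; up to 3 per list discussed; the class IIa deacetylases, MEF2 factors, Myc and Ptprc; and 3 a direction for the difference between backgrounds. Genes without a symbol, predicted genes, clone names, pseudogenes and small RNAs were left out, and some genes the rules named are not reported here. List members named outside these rules (Col3a1, Ncl, Ddx21, Nop56, Npm1, Irf7, S100a9, mt-Nd2, mt-Cytb, mt-Co2 and the keratins) and genes whose libraries did not overlap were picked after their values were seen. The comparison, the genes and the gene lists were chosen with earlier results of these data known. The labels do not say that numbers pair libraries, so numbers were not taken to pair samples. Same-numbered libraries had a mean r of 0.02 over 19 pairs (6 pairs over 0.1). Differently numbered libraries had -0.006 over 54 pairs (14 pairs over 0.1). Of 27 alternatives, 26 were planned, among them each library left out, other filters, scalings, weights and covariates, and 1, the removal of GC content and length, was chosen after seeing the data.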

Additional observations from a re-analysis of the deposited data

Results flagged for a closer look

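Of 94 groups of 4 libraries checked for a library far from the others, 5 stood out, where chance alone gives about 1 in 20. MYCi975 replicate 2 had 2954 genes at the lowest value, the most of any library. Tgfbr3 was at 11.16 in vehicle replicate 3, below the other vehicle libraries. Terf1 was at 7.72 in vehicle replicate 4, above the other vehicle libraries. Krcc1 was at 9.59 in MYCi975 replicate 2, above the other MYCi975 libraries, and Hdac9 was at 5.51 in MYCi975 replicate 4, below them. The groups of 3 libraries were too small for this check.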

How the results depend on the processing

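Under all 27 alternatives 0 genes were called for the TMP195 term. The smallest adjusted p lay between 0.237, with skeletal muscle markers as a covariate, and 1. The counts of 378 genes higher and 348 lower in both backgrounds at an unadjusted p under 0.05 became 598 and 482 without a filter on low values and 570 and 569 with library weights. With the replicate number as a block they were 448 and 373, of which 452 genes were shared with the fit without it, and 6 of 14 libraries correlated best with a library of their own number. Leaving out single libraries gave 264 to 625 higher and 220 to 802 lower genes, and the correlation between backgrounds across genes ran from -0.191 to 0.251. Library weights gave an r of 0.219 and 57.9% of genes with the same sign, and Ptprc as a covariate 0.121 and 55%. The cause of these shifts was not tested.

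Among the genes named by the rules, signs turned for 4; members named from the lists alone were not run singly. Hdac9 was 0.000272 with Ptprc and 0.0283 with muscle markers as a covariate, and -0.132 to 0.0454 with single libraries left out (0.0135 and 0.0454 without combination replicates 2 and 3). Mef2d was 0.0166 with Ptprc as a covariate. Myc was -0.057 with the replicate block, and -0.0429 to 0.0534 with single libraries left out (-0.0276, -0.0429, -0.0158, -0.0162 and -0.0325 without TMP195 replicate 3, vehicle replicates 1 and 4, and MYCi975 replicates 1 and 4). Ttn was 0.0146 with the muscle markers, which include it, as a covariate. The other 2909 values of named genes kept their direction. With 3 or 4 libraries a group and unknown depth, the median absolute difference over all genes, 0.10, was below the median standard error of 0.13.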

Other observations

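Of 24 hypoxia genes 2 (8.33%) reached an unadjusted p under 0.05 over both backgrounds. This held for 0 of 21 glycolysis genes and 2 of 22 antioxidant genes (9.09%), where 5.33% of all tested genes passed. The medians for TMP195 minus vehicle and for combination minus MYCi975 were 0.20 and -0.13 over 24 hypoxia response genes, 0.18 and -0.13 over 21 genes of glucose uptake and glycolysis, and 0.10 and -0.03 over 22 NRF2 target genes. For glycolysis the median against MYCi975 was -0.03 without MYCi975 replicate 2 and 0.02 without combination replicate 1, and the difference between backgrounds was not tested for these lists. Gclm, a subunit of glutamate-cysteine ligase in glutathione synthesis, stood at 8.20, 8.70 and 7.96 in TMP195 libraries, against 7.32, 7.01, 7.82 and 7.02 in vehicle libraries, with no overlap. With MYCi975 present as well, combination libraries had 7.75, 7.31 and 7.94, against 7.39, 7.18, 7.97 and 8.07 in MYCi975 libraries, with full overlap. The Gclm difference was 0.99 against vehicle and 0.01 against MYCi975. Ndrg1, a stress-responsive gene of the hypoxia list, had 0.57 and 0.13, and Car9, the carbonic anhydrase of hypoxic tumour cells, 0.33 and 0.30. None passed adjustment in limma.

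Bmp4, a bone morphogenetic protein, stood at 6.56, 6.35 and 5.88 in TMP195 libraries, against 4.99, 4.94, 5.85 and 4.58 in vehicle libraries, and at 5.26, 5.32 and 5.58 in combination libraries, against 5.57, 4.90, 4.93 and 5.09 in MYCi975 libraries. All TMP195 libraries exceeded all vehicle libraries, while combination and MYCi975 libraries overlapped, with Bmp4 differences of 1.17 and 0.26. The share of all genes that separate so against vehicle is not given here. Of the phagocytosis list, the apoptotic cell receptors Mertk and Axl differed by 0.25 and 0.32 over both backgrounds. Rac2, the GTPase of the phagocyte oxidase, differed by -0.55. Of 23 members, 15 (65.2%) had opposite signs, where 50.3% of all tested genes did.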
